A study of Mus musculus with 2 samples.

Results

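The cells described here carried transcripts of Eomes (Tbr2), the T-box transcription factor that marks intermediate progenitors of the glutamatergic lineage. A barcode was a member where it held at least 2 Eomes UMIs (unique molecular identifiers, each counting 1 captured transcript), at most 4 Reln UMIs, at most 1 UMI of Gad1 and Gad2 together and 0 Pdgfra UMIs. The limits on Reln, Gad and Pdgfra keep out Cajal-Retzius cells, GABAergic cells and oligodendrocyte precursor cells (OPCs). Of 22193 barcodes that had at least 500 detected genes and at most 10% mitochondrial UMIs, 246 were members, 101 in replicate 1 and 145 in replicate 2. Members with at least 2 UMIs of Mki67 and Top2a together, both transcribed in cycling cells, are called dividing (20 and 21 cells), and the remaining 81 and 124 are called other Eomes cells.

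The study profiled single cells of the wild-type mouse pallium (the dorsal forebrain, which includes the cortex) at postnatal day 3. Embryos had received EdU, a thymidine analogue incorporated into replicating DNA, at embryonic day 12, and dissected pallia were pooled. Viable EdU-positive cells within the brightest 10% were sorted and captured in 2 droplet libraries, replicates of 1 group with no treatment or control. No strain is given in the labels, and nothing there says that the libraries come from separate animals or sorts. In the test the library is a block, which takes out the overall difference between libraries. The p-values below therefore rest on how differences between classes of cells vary between these 2 libraries, which may be technical.

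In the developing cortex, Pax6-positive radial glia at the ventricle give rise to Eomes-positive intermediate progenitors, which divide in the subventricular zone and produce glutamatergic neurons. The passage is described as a succession of transcription factors, from Pax6 through Neurog2 and Eomes to Neurod1 and Tbr1, with Insm1 acting in the step away from the ventricle. Eomes is also found in Cajal-Retzius cells and in projection neurons of the olfactory bulb.

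Eomes lies at chr9:118478212-118486132 on the forward strand (GRCm38, GENCODE M21), and its exons overlap the opposite-strand gene Gm33460. Neurog2 lies at chr3:127633135-127635631, Insm1 at chr2:146221921-146225020 and Neurod1 at chr2:79452521-79456751, where Neurod1 shares exon sequence with Cerkl on the same strand, so its counts are uncertain to that extent. The 250 bases before the RefSeq start (GRCm38.p6) are shown for Eomes, which defines the cells, for Neurod1, which stood higher in the non-dividing members, and for Gadd45g, which stood higher in the dividing ones. The windows are chr9:118477939-118478188 (forward strand), chr2:79456637-79456886 (reverse strand) and chr13:51846425-51846674 (forward strand). Capitals mark CANNTG, the E-box core that proneural proteins such as Neurog2 and Neurod1 bind, which reads the same on both strands.
Eomes: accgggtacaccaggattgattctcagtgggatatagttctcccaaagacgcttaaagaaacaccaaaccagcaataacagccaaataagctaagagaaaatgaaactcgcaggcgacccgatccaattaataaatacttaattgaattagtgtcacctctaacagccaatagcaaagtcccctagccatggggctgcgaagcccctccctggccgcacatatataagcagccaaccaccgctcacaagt
Neurod1: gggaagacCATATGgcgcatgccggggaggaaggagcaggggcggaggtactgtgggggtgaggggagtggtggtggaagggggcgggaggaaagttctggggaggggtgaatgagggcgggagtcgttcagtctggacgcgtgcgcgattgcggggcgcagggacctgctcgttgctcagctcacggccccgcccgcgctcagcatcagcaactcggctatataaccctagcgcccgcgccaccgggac
Gadd45g: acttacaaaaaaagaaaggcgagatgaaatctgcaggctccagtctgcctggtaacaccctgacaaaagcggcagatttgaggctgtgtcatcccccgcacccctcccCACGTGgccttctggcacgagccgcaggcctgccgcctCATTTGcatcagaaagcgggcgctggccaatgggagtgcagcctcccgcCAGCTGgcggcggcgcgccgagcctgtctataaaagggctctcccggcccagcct
The window held 0 matches at Eomes, 1 at Neurod1 and 3 at Gadd45g. Of all 32851 promoter windows of that length in the table, 66.2% held at least 1 match and 12.2% at least 3. Of 20 intermediate progenitor genes listed for this work, 15 had a window in the table. Counting any window of a gene, 10 of them had at least 1 match and 3 had at least 3. Some of these genes had several windows, so these counts per gene are not on the scale of the shares per window. A match describes letters only, and no match says nothing of a factor.

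Members made up 0.900% of the filtered barcodes in replicate 1 (exact Clopper-Pearson 95% interval 0.733% to 1.09%) and 1.32% in replicate 2 (1.12% to 1.55%). Among the members, 19.8% were dividing in replicate 1 (12.5% to 28.9%) and 14.5% in replicate 2 (9.19% to 21.3%). These intervals overlap each other, and among all filtered barcodes 18.4% and 19.7% were dividing. Intervals cover counting error only.

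Dividing members held more Eomes UMIs per cell than the others, as the plot of Eomes UMIs per cell shows. The median was 6.5 in replicate 1 (2 to 11) and 8 in replicate 2 (2 to 17) for dividing members, and 3 in both libraries (2 to 15 and 2 to 23) for other Eomes cells. The members were chosen by these Eomes counts and split by Mki67 and Top2a, so this is a description without a test, and the dividing cells were also deeper, with medians of 13318.5 and 16220 UMIs in all against 7397 and 7555.5. Scaled to CPM (the usual depth-scaled unit, here the UMIs of a gene relative to all UMIs summed in the class), Eomes stood at 415 and 482 CPM in dividing and at 485 and 483 CPM in other Eomes cells, so the higher count per cell came with a like share of the transcripts.

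**Figure D1:**
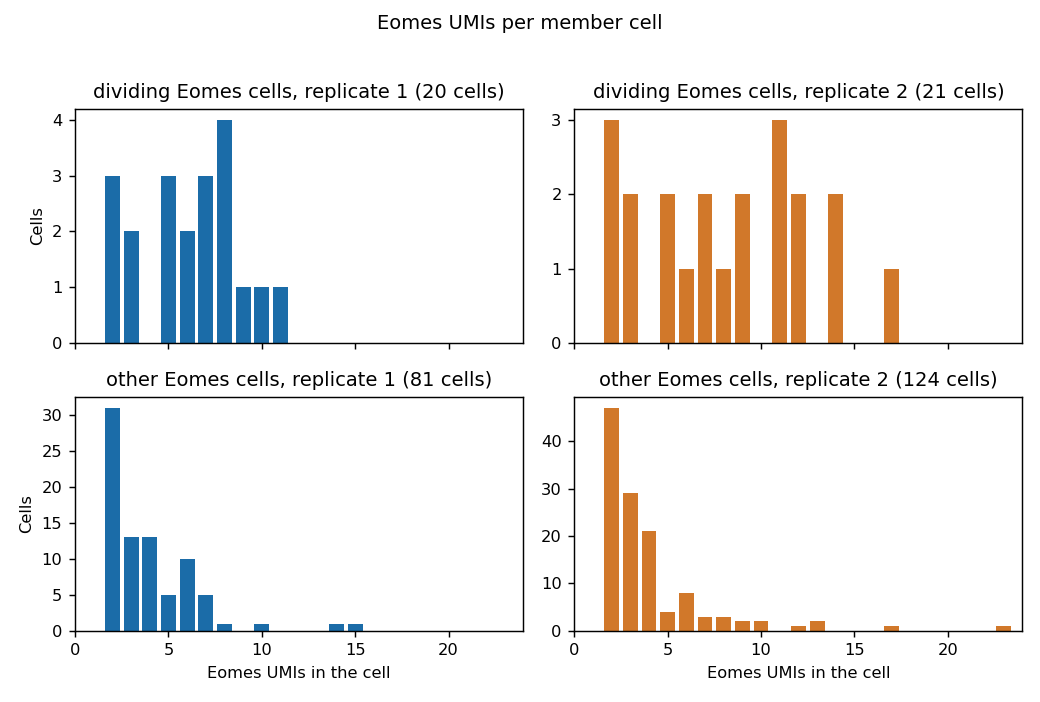
Histograms of Eomes UMIs per cell (x axis) with the number of cells (y axis), by class and library. The bars start at 2, the threshold of the rule; medians are 6.5 and 8 in dividing members and 3 in both libraries for the others.

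Many members sat at the threshold: 34 cells in replicate 1 and 50 in replicate 2 held exactly 2 Eomes UMIs. Neurod1, the bHLH factor of the late intermediate progenitor, stood at 212 and 315 CPM in these cells and at 204 and 119.5 CPM in the 117 and 111 cells just outside, which had 1 Eomes UMI and met the other limits. In the 4742 and 4216 cells with 0 Eomes UMIs it stood at 19.2 and 21.0 CPM. Cells with 1 Eomes UMI were thus closer in Neurod1 to the members at the threshold than to cells without Eomes in replicate 1, and between them in replicate 2. The cells without Eomes were not only neurons, and the oligodendroglial factor Olig1 stood at 737 and 649 CPM in them. Against the stricter neuron gate described below, Neurod1 with 1 Eomes UMI was higher in replicate 1 and close in replicate 2. Neurog2, the proneural bHLH factor that acts earlier, was highest in the members with the most Eomes UMIs. It stood at 23.8 and 12.4 CPM with 1 Eomes UMI, 17.4 and 22.7 CPM with 2, 39.9 and 71.5 CPM with 3, and 170.1 and 133 CPM in the 52 and 64 members with 4 or more. From 1 to 2 Eomes UMIs it was lower in replicate 1 and higher in replicate 2, and the last cells were also deeper, with medians of 9080.5 and 9433 UMIs. The strata use the Eomes counts that chose the members, so these values are a description. The Reln, Gad and Pdgfra limits removed 49 of 150 and 74 of 219 barcodes with at least 2 Eomes UMIs.

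The label was set against marker lists. These lists were chosen with earlier results of these data known, so they are not independent support for it. A UMI of at least 3 listed intermediate progenitor genes was found in 78 of 81 and 123 of 124 other Eomes cells and in 20 of 20 and 21 of 21 dividing ones. That measure is weak, since 63.6% and 68.2% of OPCs, a class of Pdgfra-positive cells without Eomes, Neurod2 or Neurod6, met it too. Lists of neurons that also carry Eomes or share its lineage were not low as sums, except the Cajal-Retzius list in dividing members. The 9 olfactory projection neuron markers summed to 252 and 280.4 CPM in dividing and 447 and 537 CPM in other Eomes cells, against 112 and 120.02 CPM in the neurons of the rule, 270 and 289 CPM in the stricter neuron gate described below and 14.4 and 17.6 CPM in OPCs. Tbr1 and the glutamate transporter gene Slc17a6 made up most of that sum, and Tbx21 and Cdhr1 were at 0 in all members. The 10 Cajal-Retzius markers summed to 23.8 and 5.67 CPM in dividing and 147 and 216 CPM in other Eomes cells, against 188 and 156 CPM in neurons, 247 and 221 CPM in the stricter gate and 60.4 and 95.1 CPM in OPCs. Calb2 gave 130.3 and 195 CPM of the sum in other Eomes cells, while Trp73 and Ebf2 stood at 0 to 2.83 CPM in the members. The 12 dentate granule lineage genes summed to 3873 and 3671 CPM in dividing and 5503 and 6460.5 CPM in other Eomes cells, against 2331 and 2588 CPM in neurons, 5180 and 5625 CPM in the stricter gate and 628 and 741 CPM in OPCs. Zbtb20 and Igfbpl1 made up most of it, and Prox1, the transcription factor of dentate granule cells, stood at 25.8 and 18.6 CPM in other Eomes cells and 20.9 and 23.0 CPM in OPCs. The part of such neurons in the members was not tested. Most other Eomes cells also carried neuronal transcripts: Neurod2, Neurod6 or Tbr1 was detected in 76 of 81 and 119 of 124, and in 18 of 20 and 21 of 21 dividing members. Tbr1 alone was detected in 60 of 81 and 100 of 124 other Eomes cells, and in 3.56% and 4.22% of OPCs, whose median depths were 8649 and 9478 UMIs.

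Markers of glia and of GABAergic cells were present at differing levels. The OPC list summed to 163 and 176 CPM in dividing, 326 and 200.4 CPM in other Eomes cells and 4812 and 4785 CPM in OPCs. The GABAergic list summed to 109 and 93.5 CPM in dividing and 65.2 and 124 CPM in other Eomes cells. The microglial list summed to 9.09 and 5.87 CPM in other Eomes cells, and to 3.40 CPM in the dividing cells of replicate 1, but to 1244 CPM in those of replicate 2. A single barcode there held 306 UMIs of C1qa, C1qb, C1qc and Csf1r. The astroglial list summed to 1249 and 1279 CPM in other Eomes cells, against 1799 and 1926 CPM in the stricter neuron gate and 1906 and 1850.05 CPM in OPCs. It stood at 898 and 5255 CPM in dividing members, of which Apoe alone gave 333 and 4663 CPM. Results on microglial genes and Apoe in dividing cells rest on that barcode and are not used. The doublet caller Scrublet marked 4 and 3 dividing and 3 and 9 other Eomes cells. The libraries shared 62 barcode sequences, 40 of them kept in both, and 0 among the members.

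Radial glial and neuronal transcripts met in the same cells. Pax6, the transcription factor of cortical radial glia, or Sox2, which maintains neural stem cells, was detected in 20 of 20 and 20 of 21 dividing members, and in 61.7% and 62.1% of other Eomes cells. Together with Neurod2, Neurod6 or Tbr1 in 1 cell, these were found in 18 of 20 and 20 of 21 dividing and in 55.6% and 58.1% of other Eomes cells. It was also seen outside the members: the rule's neurons showed it in 65.7% and 69.4% of cells, the stricter gate in 40.6% and 43.3%, and OPCs in 3.16% and 3.81%. Both neuron gates require a Neurod2 or Neurod6 UMI, so their shares are those of Pax6 or Sox2 alone. OPCs were chosen without Neurod2 and Neurod6, so their share can come from Tbr1 only. How particular the overlap is to the members cannot be read from these shares. Since detection depends on depth, cells were also thinned to 2000 UMIs each, which left out 2 other Eomes cells of replicate 1. Pax6 was then detected in 70.0% and 47.6% of dividing members, 19.0% and 17.7% of other Eomes cells and 4.20% and 5.15% of OPCs. Tbr1 ran the other way, at 10.0% and 14.3% of dividing, 44.3% and 36.3% of other Eomes cells and 1.01% and 0.989% of OPCs. In each pair both libraries of one member class lay above both of the other.

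**Figure D2:**
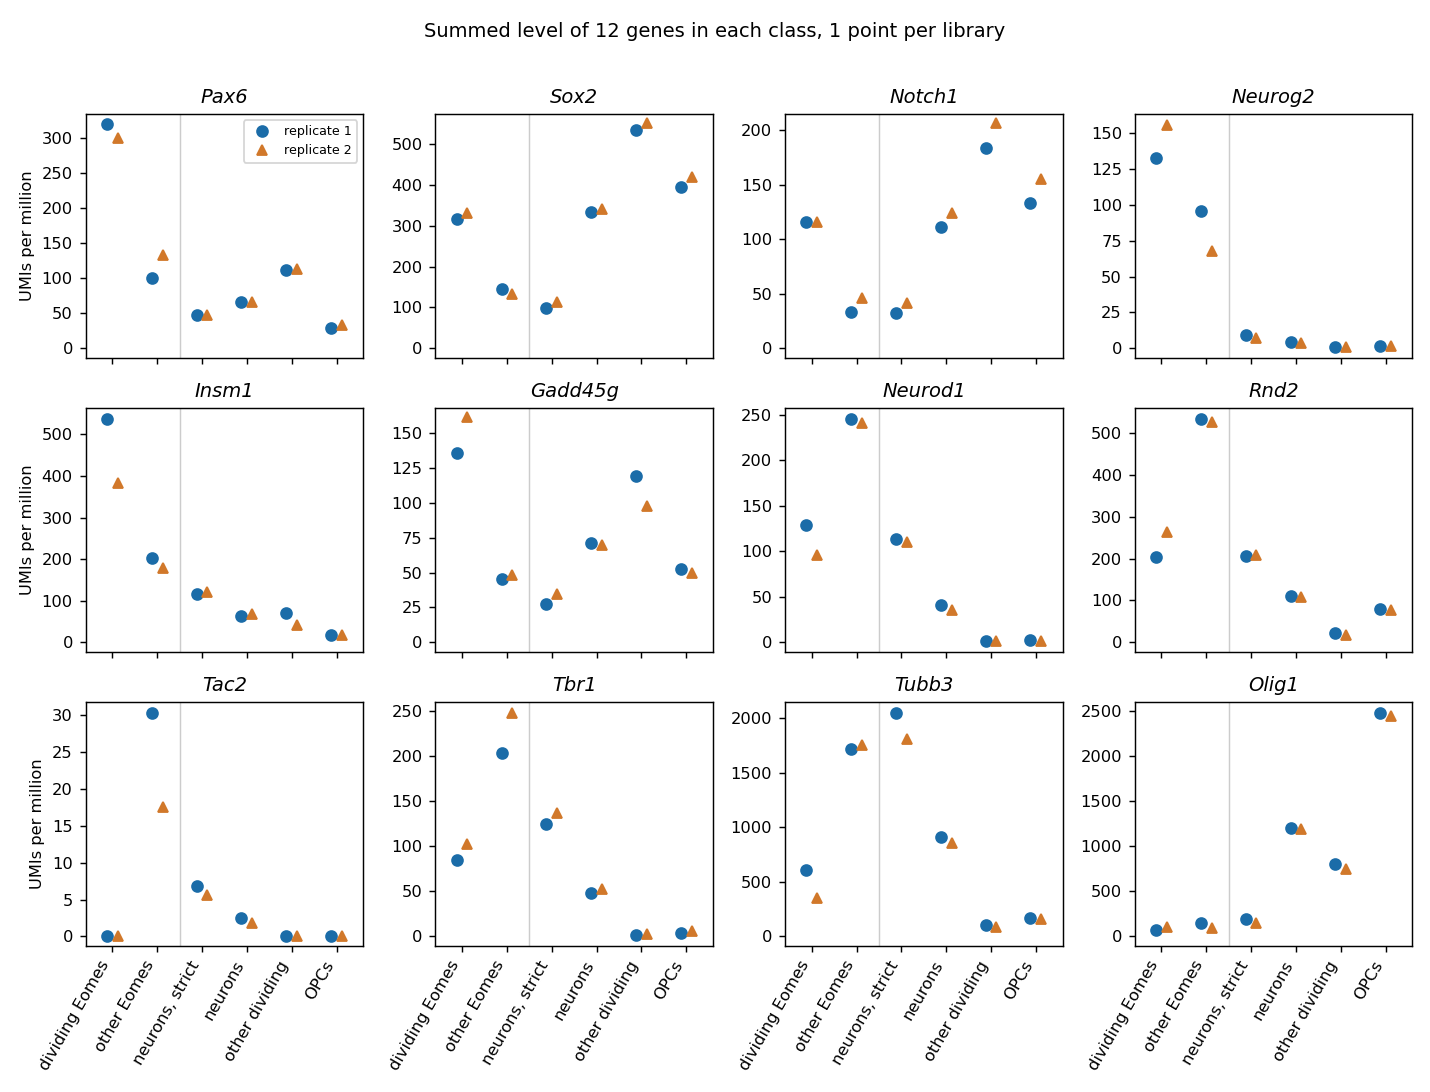
Levels of 12 genes in CPM (y axis) in each class (x axis), with 1 point per library and no error bars; "neurons, strict" are cells of the narrower neuron gate, and the grey line parts the members from the comparison classes. Pax6, Neurog2 and Insm1 are highest in dividing Eomes cells, while Neurod1, Rnd2, Tac2 and Tbr1 are highest in the other Eomes cells, in both libraries.

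Dividing members were compared with other Eomes cells to see how the progenitors differ from members with fewer than 2 Mki67 and Top2a UMIs. Across all genes tested, edgeR's quasi-likelihood test with Benjamini-Hochberg adjustment called 8.12% higher and 5.84% lower in dividing members, without counting genes of the rule. Of 22 radial glia genes 9 were higher and 3 lower (median log2 fold change 0.36, against -0.08 over all genes), and of 19 tested intermediate progenitor genes 7 were higher and 5 lower (0.57). Without the barcodes that Scrublet marked, the radial glia list had 10 higher and 4 lower and its median was -0.15. In sums over a class, fewer cells with a transcript and less of it per cell cannot be told apart. All 22 S phase genes and all 24 G2 and M phase genes were higher, which follows the choice by Mki67 and Top2a. Of 19 newborn neuron genes 0 were higher and 14 lower (-0.89).

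Among the radial glia genes, Pax6 stood at 319.9 and 300.3 CPM in dividing and at 100.02 and 133 CPM in other Eomes cells. Both dividing libraries lay above both others, and the log2 fold change was 1.42 (SE 0.15, adjusted p = 5.27e-07 by edgeR's quasi-likelihood test). Sox2 stood at 316 and 331 CPM against 144 and 134 CPM, a log2 fold change of 1.28 (SE 0.13, adjusted p = 1.49e-07, edgeR). Notch1, the receptor that holds progenitors undifferentiated, stood at 116 CPM in both dividing sums against 33.3 and 46.0 CPM (1.55, SE 0.23, adjusted p = 3.13e-05, edgeR). Vim and Prom1 were among the others that rose. Radial glial genes did not move as 1 block: Fabp7, Slc1a3, Hes1 and Hes5 did not pass the test, and Id4, an inhibitor of bHLH factors, fell from 63.7 and 60.6 CPM to 13.6 and 14.2 CPM. With members of at least 3 Eomes UMIs, Id4 had an adjusted p of 0.174 (edgeR). Emx1, the dorsal homeobox gene, stood at 81.7 and 36.8 CPM in dividing and 115 and 106 CPM in other Eomes cells (log2 fold change -0.90, SE 0.26, adjusted p = 0.0215, edgeR).

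The intermediate progenitor genes split into those higher in dividing cells and those higher in the others. Insm1, a zinc finger repressor that promotes basal progenitor formation, stood at 538 and 382 CPM in dividing and 202 and 178 CPM in other Eomes cells (log2 fold change 1.31, SE 0.19, adjusted p = 3.29e-05, edgeR). Gadd45g, a growth arrest gene transiently expressed in differentiating progenitors, stood at 136 and 161 CPM against 45.5 and 47.9 CPM (1.71, SE 0.23, adjusted p = 1.14e-05, edgeR). Hes6, an antagonist of Hes1, stood at 439 and 337 CPM against 185 and 207 CPM (0.98, SE 0.18, adjusted p = 0.000635, edgeR). All 3 had both dividing libraries above both of the other class. Btg2, an antiproliferative gene of neurogenic divisions, stood at 378 and 164 CPM against 153 and 137 CPM (0.91, SE 0.21, adjusted p = 0.00502, edgeR), with replicate 2 of the dividing cells close to the others. Neurog2 stood at 133 and 156 CPM against 95.5 and 67.5 CPM (0.92, SE 0.24, adjusted p = 0.0100, edgeR). With members of at least 3 Eomes UMIs it no longer passed (0.61, adjusted p = 0.124).

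In the opposite direction, Neurod1 stood at 129 and 96.3 CPM in dividing and 246 and 241 CPM in other Eomes cells (log2 fold change -1.09, SE 0.18, adjusted p = 0.000105, edgeR). Rnd2, a small GTPase that Neurog2 induces in migrating neurons, stood at 204 and 263 CPM against 535 and 528 CPM (-1.12, SE 0.13, adjusted p = 1.66e-06, edgeR). Sstr2, a somatostatin receptor, stood at 85.1 and 130.3 CPM against 189 and 197 CPM (-0.78, SE 0.18, adjusted p = 0.00529, edgeR). Tac2, which encodes the neurokinin B precursor, had 0 UMIs in the dividing cells of both libraries and 30.3 and 17.6 CPM in the others. Against a floor of 3 UMIs over both libraries, 4.64 CPM, it was at least 4.87-fold lower in dividing cells. Its 38 UMIs came from 7 cells (3 and 4), so few cells carry that level. Nhlh2, a bHLH factor of early neurons, was also at 0 in dividing cells, at least 2.43-fold lower against the same floor. In replicate 1 it was detected in 4 of 81 other Eomes cells. Both bounds count UMIs and not cells, so with so few carriers a lower share of cells cannot be read from them. Dll1, Dll3, Mfng, Mfap4, Igsf8, Neurod4 and Nhlh1 did not pass the test.

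Genes of neuronal differentiation were lower in the dividing members across several lists. Of 28 migration and guidance genes 14 were lower and 0 higher, of 25 synaptic genes 13 and 0, and of 12 upper-layer neuron genes 7 and 0. Tubb3, the neuronal beta-tubulin, stood at 613 and 354 CPM in dividing and 1717 and 1756 CPM in other Eomes cells (log2 fold change -1.84, SE 0.12, adjusted p = 1.60e-10, edgeR). Dcx, the microtubule protein of migrating neurons, stood at 177 and 292 CPM against 544 and 740.1 CPM (-1.40, SE 0.12, adjusted p = 1.11e-08, edgeR). Tbr1 stood at 85.1 and 102 CPM against 203 and 247 CPM (-1.23, SE 0.18, adjusted p = 4.62e-05, edgeR). Bcl11b (Ctip2), a factor of subcerebral neurons, stood at 3.40 and 14.2 CPM against 86.4 and 75.3 CPM (-3.05, SE 0.45, adjusted p = 3.25e-05, edgeR). Myt1l, a neuronal zinc finger repressor, stood at 40.8 and 53.8 CPM against 265 and 294 CPM (-2.51, SE 0.19, adjusted p = 2.26e-09, edgeR). The calcium-binding protein gene Calb2 showed the largest such gap among the listed genes present in both classes, at 10.2 and 2.83 CPM against 130.3 and 195 CPM (-4.72, SE 0.51, adjusted p = 3.92e-07, edgeR).

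Regulators of chromatin and of the cycle were higher in dividing members, which again goes with their choice. Of 15 chromatin and RNA regulators 6 were higher and 0 lower, and of 18 cyclins and CDK inhibitors 10 were higher and 1 lower. Ezh2, the histone H3K27 methyltransferase, stood at 378 and 462 CPM against 139 and 147 CPM (log2 fold change 1.60, SE 0.13, adjusted p = 4.48e-09, edgeR). Cdca2 had 0 UMIs in other Eomes cells and 78.3 and 99.1 CPM in dividing ones, at least 50.3-fold higher. Of 16 immediate early genes, which respond to dissociation, 7 were higher and 0 lower. Of 22 Notch pathway genes 2 were higher, Notch1 and Hes6, and 0 lower, a share of higher genes near the 8.12% of all genes tested. The microglial list had 7 of 8 genes higher, with 0 tested once barcodes with microglial UMIs were removed; the counts for the radial glia, intermediate progenitor and newborn neuron lists were then 9 and 3, 7 and 5, and 1 and 14.

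**Figure D3:**
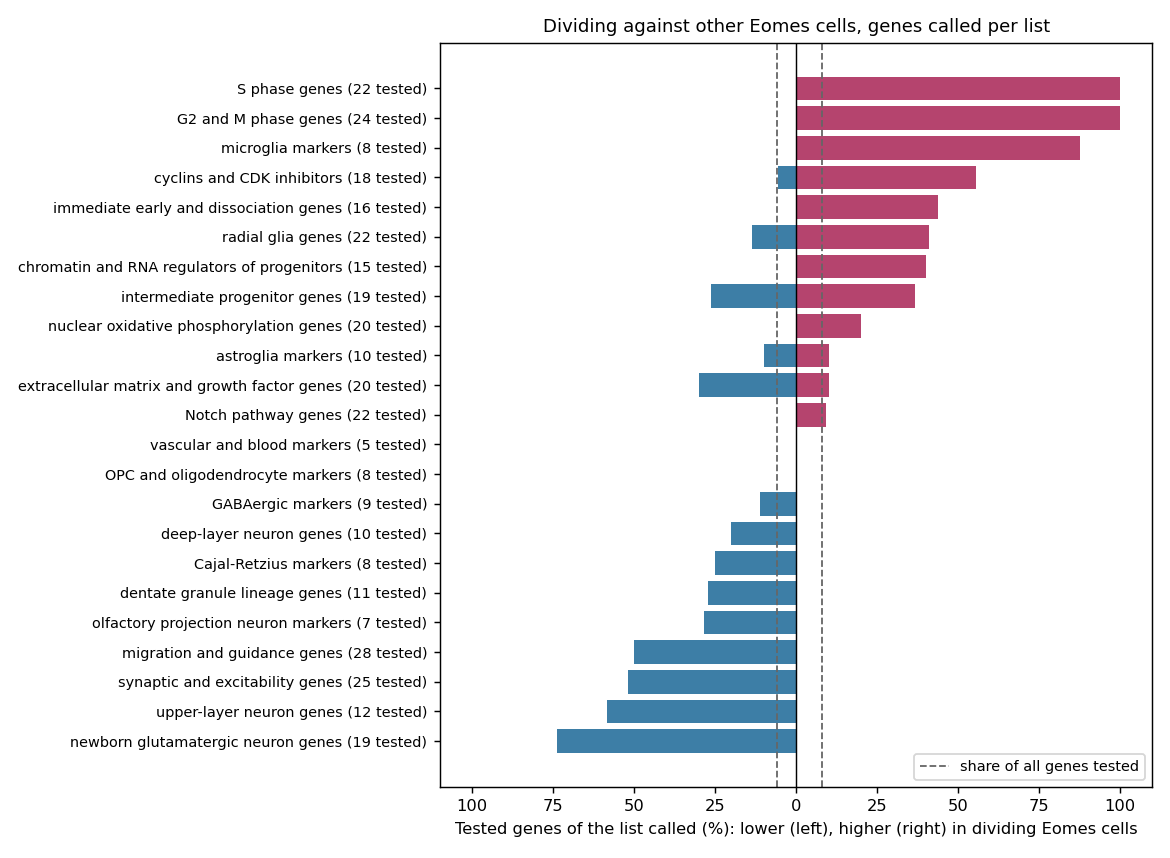
Share of the tested genes of each list (y axis, with the number tested) that were called higher (right) or lower (left) in dividing than in other Eomes cells, in percent (x axis), with dashed lines for all genes (8.12% and 5.84%). Newborn neuron, upper-layer, synaptic and migration genes extend to the left only, while radial glia and intermediate progenitor genes extend both ways; the microglial bar rests on 1 barcode.

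Other Eomes cells were compared with neurons to see what sets them apart from cells further along the lineage. The rule takes as neurons all cells with at least 1 UMI of Neurod2 and Neurod6 together and 0 Eomes UMIs, 2319 in replicate 1 and 2359 in replicate 2. That gate was mixed. In it 51.7% and 52.7% of cells had exactly 1 such UMI, 35.7% and 40.1% had Pdgfra UMIs and 14.7% and 14.9% were dividing, and the oligodendroglial factor Olig1 stood at 1200.2 and 1183 CPM against 152 and 92.9 CPM in other Eomes cells. A stricter gate therefore stands beside it (780 and 759 cells), with at least 2 Neurod2 or Neurod6 UMIs, the Reln, Gad and Pdgfra limits of the members and fewer than 2 Mki67 and Top2a UMIs. Olig1 stood there at 187 and 152 CPM. Against the neurons of the rule, edgeR's quasi-likelihood test with Benjamini-Hochberg adjustment called 10.3% of genes higher and 16.2% lower in other Eomes cells. Against the stricter gate it called 2.91% higher and 3.38% lower.

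Intermediate progenitor genes stood higher in other Eomes cells under both gates, with 13 of 19 higher and 3 lower against the neurons of the rule and 13 higher and 0 lower against the stricter gate. The median log2 fold change of the list was 1.80 and 1.08, against -0.07 and -0.01 over all genes. Neurog2 stood at 95.5 and 67.5 CPM in other Eomes cells, 4.07 and 3.62 CPM in neurons and 9.02 and 7.08 CPM in the stricter gate. Its log2 fold change was 4.38 (SE 0.23, adjusted p = 2.78e-12, edgeR), and 3.30 against the stricter gate (adjusted p = 9.33e-08). Neurod1 stood at 246 and 241 CPM against 41.1 and 35.4 CPM (2.69, SE 0.11, adjusted p = 3.38e-14, edgeR), and at 114 and 110 CPM in the stricter gate (1.11, adjusted p = 1.75e-06). Mfap4, an extracellular matrix gene whose exons overlap Mapk7 on the opposite strand, stood at 102 and 126 CPM against 11.4 and 7.64 CPM (3.66, SE 0.20, adjusted p = 6.07e-12, edgeR; 2.93 in the stricter gate). These levels set the class apart from both neuron gates in each library.

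Rnd2 stood at 535 and 528 CPM against 112 and 107 CPM (log2 fold change 2.29, SE 0.08, adjusted p = 8.51e-15, edgeR), and its log2 fold change was 1.34 against the stricter gate. Sstr2 stood at 189 and 197 CPM against 30.9 and 34.0 CPM (2.58, SE 0.12, adjusted p = 3.03e-13, edgeR; 1.08). Mfng, a fringe glycosyltransferase that modifies Notch, stood at 74.3 and 64.5 CPM against 15.9 and 15.6 CPM (2.14, SE 0.18, adjusted p = 8.60e-09, edgeR; 2.47). Mfng differed at least as much from the stricter gate as from the wider one. Insm1 stood at 202 and 178 CPM against 63.5 and 68.4 CPM (1.53, SE 0.16, adjusted p = 1.90e-07, edgeR), with 0.67 against the stricter gate (adjusted p = 0.0163, edgeR). Tac2 had a log2 fold change of 3.46 (SE 0.42, adjusted p = 2.33e-06, edgeR), and of 1.89 against the stricter gate (adjusted p = 0.00927, edgeR). In replicate 1 only 3 of 81 other Eomes cells held a Tac2 UMI, against 13 of 780 cells of the stricter gate, so the Tac2 values rest on few cells.

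For 4 genes the sign of the fold change differed between the gates, and only Dll3 passed the test under both. Dll1 and Dll3, Notch ligands, were lower than in the neurons of the rule (log2 fold changes -1.58 and -0.69, edgeR adjusted p = 0.00130 and 0.0104) and stood at 0.22 (adjusted p = 0.844) and 0.87 (adjusted p = 0.0367) against the stricter gate. Gadd45g went from -0.57 (adjusted p = 0.0159, edgeR) to 0.57 (adjusted p = 0.160). Sox2 went from -1.28 (adjusted p = 1.52e-10, edgeR) to 0.36 (adjusted p = 0.0689). The part of the glial and dividing cells in the wider gate was not tested gene by gene. Radial glia genes as a list changed likewise, from 3 higher and 14 lower of 22 to 3 higher and 0 lower, and Notch pathway genes from 3 and 13 of 22 to 3 and 0.

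**Figure D4:**
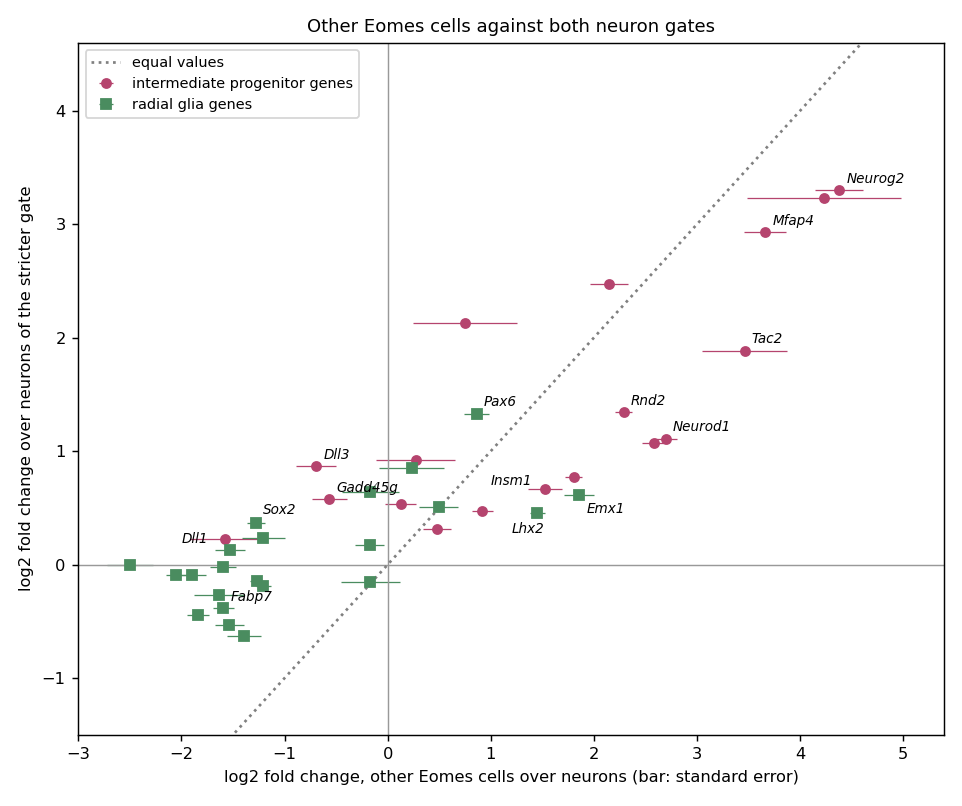
Log2 fold change of other Eomes cells over the neurons of the rule (x axis, bars: standard error) and over the stricter neuron gate (y axis), for 18 intermediate progenitor and 22 radial glia genes; Neurod4, at 0 in a class, is left out. Neurog2 and Mfap4 are far up on both axes, Pax6 lies above the dotted line of equal values, and Dll1, Dll3, Gadd45g and Sox2 lie left of 0 on the x axis and above 0 on the y axis.

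The same 3 radial glia genes, all patterning factors of the dorsal forebrain, were higher under both gates. Pax6 stood at 100.02 and 133 CPM in other Eomes cells against 66.2 and 66.2 CPM in neurons (log2 fold change 0.86, SE 0.12, adjusted p = 1.49e-05, edgeR) and 47.1 and 46.8 CPM in the stricter gate (1.33, adjusted p = 9.36e-06). Lhx2 stood at 564 and 609 CPM against 211 and 223 CPM (1.45, SE 0.07, adjusted p = 6.67e-13, edgeR; 0.45, adjusted p = 0.00296). Emx1 stood at 115 and 106 CPM against 31.8 and 29.6 CPM (1.86, SE 0.15, adjusted p = 2.62e-09, edgeR; 0.61, adjusted p = 0.0150). Tbr1 was also higher than in either gate, at 203 and 247 CPM against 48.4 and 51.9 CPM (2.18, SE 0.11, adjusted p = 1.05e-12, edgeR; 0.78, adjusted p = 6.84e-05).

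Lists of neuronal genes had fewer higher calls with the stricter gate, and so did all genes tested. Over all genes, 10.3% were higher and 16.2% lower against the neurons of the rule. Against the stricter gate 2.91% were higher and 3.38% lower. The synaptic list had more genes lower than higher under both gates. Newborn neuron genes went from 13 higher and 4 lower of 19 against the neurons of the rule to 7 higher and 6 lower of 20 against the stricter gate, synaptic genes from 6 and 9 of 25 to 2 and 8 of 24, and migration genes from 18 and 3 to 5 and 7. Mef2c, a factor of maturing cortical neurons, was picked for mention after its values were seen. It stood at 59.1 and 33.2 CPM in other Eomes cells against 457 and 292 CPM in the stricter gate. Both libraries of the members lay below both of the neurons. Dentate lineage genes, 6 of 11 higher against the neurons of the rule, had 0 higher and 0 lower against the stricter gate, and olfactory projection markers had 7 of 7 and 4 higher, with Tbx21 and Cdhr1 at 0.

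The highest fold changes among genes at 50 CPM or more included Uaca, at 68.2 and 62.6 CPM against 8.96 and 9.89 CPM (log2 fold change 2.78, SE 0.20, adjusted p = 6.70e-10, edgeR; 3.00 against the stricter gate). Pcp4, a calmodulin-binding peptide gene, stood at 887 and 708 CPM against 170.1 and 134 CPM (2.40, SE 0.07, adjusted p = 7.40e-17, edgeR; 1.60). From the extracellular matrix and growth factor list, Mdk (midkine) stood at 776 and 704 CPM against 266 and 252 CPM (1.52, SE 0.07, adjusted p = 1.17e-13, edgeR; 1.45). Immediate early genes were lower, 12 of 16 against the neurons of the rule and 7 against the stricter gate. Jun stood at 247 and 264 CPM against 628 and 654 CPM (-1.31, SE 0.09, adjusted p = 3.18e-10, edgeR; -1.18). Such genes respond to dissociation, and the part of handling in this difference was not tested.

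Dividing members differed from neurons in the early genes of the lineage. Against the neurons of the rule 10.2% of genes were higher and 10.7% lower, and against the stricter gate 12.3% and 11.4% (edgeR, Benjamini-Hochberg). These comparisons share cells with those above. Of 19 intermediate progenitor genes 14 were higher and 1 lower (median log2 fold change 1.46, or 1.61 with 3 genes at 0 set to their bound), and 13 and 0 against the stricter gate. Neurog2 had a log2 fold change of 5.29 (SE 0.27, adjusted p = 1.51e-12, edgeR; 4.20 against the stricter gate), Insm1 of 2.83 (SE 0.18, adjusted p = 6.01e-11, edgeR; 1.96) and Pax6 of 2.28 (SE 0.14, adjusted p = 2.89e-11, edgeR; 2.74). Neurod1 was higher than in the neurons of the rule (1.61, SE 0.20, adjusted p = 2.85e-06, edgeR) but not than in the stricter gate (0.01, adjusted p = 0.968). Sox2 behaved the other way, at 0.00 (adjusted p = 0.994, edgeR) and 1.63 (adjusted p = 1.49e-08). Radial glia genes had 5 higher and 10 lower of 22 against the neurons of the rule (median log2 fold change -0.45) and 9 higher and 3 lower against the stricter gate (0.19).

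To see what sets dividing Eomes cells apart with division matched, they were compared with other dividing cells that met the same Mki67 and Top2a limit and the Reln, Gad and Pdgfra limits but had 0 UMIs of Eomes, Neurod2 and Neurod6. There were 520 and 457 such cells, with medians of 13297.5 and 14184 UMIs, close to the members' depth, and their astroglial and microglial lists summed to 5593 and 6049 CPM and to 947 and 1376 CPM. Neurod2 or Neurod6, which that gate keeps at 0, was detected in 18 of 20 and 21 of 21 dividing members. Higher neuronal lists in the members thus go in part with the choice of cells. edgeR's quasi-likelihood test called 7.82% of genes higher and 10.4% lower in dividing members. Intermediate progenitor genes had 12 higher and 0 lower of 19 (median log2 fold change 2.10, or 2.60 with 3 genes that are at 0 in a class set to their bound), newborn neuron genes 15 and 1 of 19 (1.85), migration genes 17 and 2 of 28, and radial glia genes 3 and 16 of 22 (-1.47).

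Neurog2 stood at 133 and 156 CPM in dividing members against 1.02 and 1.07 CPM in other dividing cells (log2 fold change 7.02, SE 0.35, adjusted p = 1.40e-12, edgeR). Tbr1 stood at 85.1 and 102 CPM against 1.74 and 2.44 CPM (5.39, SE 0.32, adjusted p = 3.03e-11, edgeR). Igfbpl1, which encodes an insulin-like growth factor binding protein-like factor of young neurons, stood at 2072 and 1838 CPM against 62.0 and 70.3 CPM (4.79, SE 0.09, adjusted p = 5.45e-20, edgeR). In all 3 genes both libraries of dividing members lay far above both of the other dividing cells, whose gate holds Neurod2 and Neurod6 at 0. The radial glia genes that were higher were again Pax6 (319.9 and 300.3 CPM against 112 and 113 CPM; 1.37, SE 0.13, adjusted p = 7.24e-08, edgeR), Lhx2 (487 and 411 CPM against 167 and 161 CPM; 1.35, SE 0.11, adjusted p = 4.17e-09, edgeR) and Emx1 (81.7 and 36.8 CPM against 11.8 and 10.5 CPM; 2.28, SE 0.32, adjusted p = 1.98e-05, edgeR). With each cell thinned to 2000 UMIs, Emx1 had a log2 fold change of -0.47 (adjusted p = 0.920). Fabp7, the brain lipid-binding protein of radial glia and astrocytes, stood at 1548 and 1918 CPM against 9871 and 10531 CPM (-2.64, SE 0.11, adjusted p = 2.01e-13, edgeR).

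Cell cycle genes differed even with division matched: 9 of 22 S phase and 9 of 24 G2 and M phase genes were higher in dividing members, and 0 lower. The sums of Mki67 and Top2a also differed, with Top2a at 1079 and 1218 CPM against 616 and 653 CPM, so the match on 2 UMIs was not a match of levels. Ccnd1, the D-type cyclin of glial and radial progenitors, stood at 105 and 39.7 CPM against 232 and 287 CPM (log2 fold change -1.99, SE 0.25, adjusted p = 3.86e-06, edgeR). Cdkn1b (p27), an inhibitor of cyclin-dependent kinases, stood at 265 and 249 CPM against 130 and 119 CPM (0.96, SE 0.12, adjusted p = 5.03e-06, edgeR), and no longer passed with thinned cells (0.61, adjusted p = 0.358).

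Few other Eomes cells lacked both Neurod2 and Neurod6: 6 in replicate 1 and 8 in replicate 2, with medians of 8804.5 and 8059 UMIs. Their radial glia genes summed to 18386 and 14692 CPM, against 5527 and 4552 CPM in the 75 and 116 cells that had such a UMI. Fabp7 stood at 5917 and 6022 CPM against 2357 and 1532 CPM, and Neurog2 at 675 and 222 CPM against 46.1 and 57.3 CPM. The astroglial list was also higher in them, at 5685 and 4596 CPM against 870.1 and 1061 CPM, and its part in these levels was not tested. Tac2 and Calb2 were at 0 in both libraries. Only 3 of all 81 other Eomes cells of replicate 1 had a Tac2 UMI, so 0 in so few cells says little of Tac2. The split was made on the data and its sums hold only 51888 and 63097 UMIs, so these are levels without a test.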

How the data were processed

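Single-cell RNA was measured in 2 libraries of 1 group. The authors deposited unnormalised UMI counts; per the file headers Cell Ranger 6.0.2 wrote them. Build mm10 is listed in the submitters' processing notes, beside Seurat 4.1.0 and R 4.1.0, whose roles are not given in the sources used here. The deposited counts cover 32285 genes in 13858 and 14513 barcodes, with 97091962 and 108903409 UMIs. Barcodes with at least 500 detected genes and at most 10% mitochondrial UMIs were kept (11228 and 10965).

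For each class, UMI counts of its cells were added up within a library and tested with edgeR 4.0.16 in R 4.3.3 (quasi-likelihood test, TMM, filterByExpr, Benjamini-Hochberg at 0.05). The 4 classes of both libraries (8 sums, 13170 genes) entered 1 fit with the library as a block, since classes of 1 library share its cells' capture. The 9 genes of the class rules and mitochondrial genes were left out of counts of called genes, which leaves 13148. No sum was dropped or imputed. Cells were thinned to 2000 UMIs for shares, and Scrublet in scanpy 1.11.5 assumed 10% doublets, which were kept. Intervals are exact at 95%, and a floor is 3 counts. The test was also run on simulated data with 1 spread for all genes and 1 mean profile apart from the genes changed. That setting cannot show how the test handles genes of unequal spread.

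Genes named are all intermediate progenitor and radial glia genes as the text needs them, the 4 genes of lowest adjusted p in each other list, and the 8 largest changes per direction among called genes of at least 50 CPM that moved alike in both libraries. Exceptions are said to be so, or are markers of a cell type. Some listed genes are counted in their lists but not reported here by name. The members and the 23 gene lists were chosen with earlier results of these data known. Gene spans come from GENCODE M21 (GRCm38), promoters from RefSeq (GRCm38.p6). Alternatives were no TMM, no filter on low counts, no block, DESeq2 1.42.0, other Eomes and division thresholds, the stricter neuron gate, thinning, removal of barcodes that Scrublet marked, and leaving out each library. Removal of barcodes shared by the libraries, with microglial genes, or with Olig1, Olig2 or Aqp4 was added after seeing the data.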

Additional observations from a re-analysis of the deposited data

How the results depend on the processing

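Of 58 gene comparisons, 58 kept their direction and side of the threshold without TMM, without the filter on low counts, without barcodes that Scrublet marked, without shared barcodes and without barcodes with microglial genes. With no replicate block all 58 did too, and the counts of genes higher and lower were 1036 and 1865 for other Eomes cells against neurons, 1185 and 1285 for dividing members against neurons, 938 and 640 against other Eomes cells, and 895 and 1118 against other dividing cells. DESeq2 gave 1357, 928 and 855 genes lower in the comparisons of other Eomes cells with neurons, dividing members with neurons and dividing members with other dividing cells. The stricter gate gave 356 higher and 414 lower for other Eomes cells, of which 242 and 215 were also called against the neurons of the rule. Thinning gave, in the same order of comparisons as the block, 510 and 681, 245 and 424, 212 and 280, and 148 and 394, and moved the median of all genes by up to -0.34 (log2) in comparisons of dividing members. Removal of barcodes with an Olig1, Olig2 or Aqp4 UMI gave 28 and 85, 322 and 305, 225 and 119, and 94 and 223. It also takes away 18 of 20 and 9 of 21 dividing members. The share of called genes that were higher in dividing members went from 49.0% to 61.9% (DESeq2) and 36.6% (thinned) against neurons, from 58.1% to 43.1% (thinned) against other Eomes cells, and from 42.9% to 52.4% (no TMM, 1236 higher and 1122 lower), 59.1% (DESeq2), 53.4% (stricter gate), 27.3% (thinned) and 29.7% (Olig1, Olig2 or Aqp4) against other dividing cells. For other Eomes cells against neurons it went from 38.8% to 24.8% in the last setting. The cause of these shifts was not tested.

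Directions turned for Dll1 (0.22), Dll3 (0.87), Gadd45g (0.57) and Sox2 (0.36) in other Eomes cells with the stricter gate, for Dll1 (0.68), Dll3 (1.28) and Neurod1 in dividing members against neurons (-0.41) without barcodes with Olig1, Olig2 or Aqp4, and for Emx1 against other dividing cells with thinning (-0.47). Calls were lost in 2 comparisons with DESeq2, 5 with at least 3 Eomes UMIs, 10 of 55 with thinning and 22 of 56 without barcodes with Olig1, Olig2 or Aqp4. As a share of filtered barcodes, members would be 2.14% with the Eomes threshold at 1 UMI and 0.730% with it at 3. With barcodes that hold Olig1, Olig2 or Aqp4 removed, they were 2.83% of those left. Dividing cells were 16.7% of members, 21.6% with at least 3 Eomes UMIs, 26.0% with at least 1 Mki67 or Top2a UMI and 10.7% after thinning. With 1 library left out no residual degrees of freedom remain and there is no test; all 55 fold changes with a value kept their direction, and the shares ranged from 0.900% to 1.32% and from 14.5% to 19.8%. The 20 and 21 dividing cells limit what can be called in them.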
